A study of Mus musculus with 9 samples.

Results

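The proteasome genes described here are the 44 protein-coding genes of a mouse RNA sequencing table whose names begin with Psm, a letter from a to g and a number, out of 41096 genes of which 20461 are protein-coding. The 3 immunoproteasome catalytic subunits Psmb8, Psmb9 and Psmb10 were set apart and used for comparison. By letter there were 8 Psma, 7 Psmb, 7 Psmc, 13 Psmd, 4 Psme, 1 Psmf and 4 Psmg genes. The name pattern also took Psmc3ip, a meiotic recombination factor that is not a proteasome subunit, and it left out 2 subunits, Psmb5 and Psmd2, because no gene in the table used here carries those names.

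Messenger RNA was sequenced from the peritoneal exudate of APOE-/- mice, which lack apolipoprotein E and are prone to atherosclerosis. The 4 diabetic samples came from mice that received streptozotocin, which kills insulin-producing cells, on each of 5 days at 40 mg/kg, beginning at 8 weeks of age, and the 5 control samples from mice of the same genotype given citrate buffer. Both groups then ate western diet for 8 weeks, received 1.5 mL of 3% thioglycollate, which inflames the peritoneum and recruits leukocytes, and were killed 3 days later, when the cavity was rinsed with 10 mL of PBS. The labels call the cells peritoneal macrophages, name no sorting or adherence step, and do not say whether a sample was 1 mouse or a pool, so a p-value here speaks only of the spread among these samples. Apoe itself was read at 135 to 373 FPKM (fragments per kilobase of gene, scaled between samples) across the 9 samples. This does not check the genotype, because the labels do not say which part of the gene is missing.

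The libraries held 14156421 to 16169060 reads in genes, with 10658 to 11219 genes at 1 FPKM or more. On the first principal component, with 36.0% of the variance, diabetic 3 lay at 1.44, between the control samples (−23.5 to −11.2) and the other diabetic samples (20.9 to 30.5). In a limma fit over all genes, 533 of 11193 genes passed an adjusted p of 0.05. Macrophage markers summed to 7301 to 11107 FPKM in control samples and 5822 to 9848 in diabetic samples, with 0 of 10 tested higher and 1, Mrc1, lower in diabetic samples, a call that was lost when any sample but diabetic 3 was left out. Each of the 15 T cell markers passed as higher in the diabetic group, with a summed level of 51.4 to 81.5 FPKM in control samples and 147 to 562 FPKM in diabetic samples, and 8 of them passed without diabetic 4. Of 11 B cell markers 3 were higher, with summed levels of 1065 to 2239 against 1628 to 3484 FPKM. In a mixture of cells, fewer cells of a type and less RNA per cell cannot be told apart.

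The proteasome is the barrel-shaped protease that degrades ubiquitin-tagged proteins in the cytosol and nucleus. Its core particle stacks rings of alpha subunits, which gate the entrance, and of beta subunits, some of which carry the catalytic sites. A regulatory particle of ATPases, which unfold the substrate, and non-ATPase subunits, which bind and remove ubiquitin, caps the core. Alternative activators can take the place of the cap. In immune cells, and after interferon, Psmb9, Psmb10 and Psmb8 are built into new cores instead of Psmb6, Psmb7 and Psmb5, which changes the peptides that are cut for antigen presentation.

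Since Psmb5, the chymotrypsin-like catalytic subunit, has no gene of its own in the table, its transcript was followed through Mir686, whose 109 bases on chr14:54616677-54616785 (GRCm38, GENCODE M21, minus strand) lie wholly inside a Psmb5 coding exon at chr14:54616515-54616821. The hairpin sequence occurs in 1 of the 2 Psmb5 transcripts, and it is shown because reads credited to Mir686 cannot be told from reads of Psmb5 messenger RNA. Psmd2, a non-ATPase scaffold subunit, was followed through an unnamed gene on chromosome 16 that the table's own UniProt match calls Psmd2. Promoter windows are shown for Psmb5 and Psmb6, 2 catalytic subunits whose promoter entry matches TGACNNNGC, the antioxidant response element that Nfe2l1 and Nfe2l2 bind, and for Psme1, an activator with a match to GAAA-NN-GAAA, the interferon-stimulated response element. Capitals mark the mature Mir686 in the hairpin and the motif in each promoter, and promoter sequences are from RefSeq (GRCm38.p6).
Mir686 hairpin: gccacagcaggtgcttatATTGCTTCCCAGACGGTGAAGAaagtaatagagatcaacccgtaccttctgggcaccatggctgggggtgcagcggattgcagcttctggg
Psmb5, chr14:54618014-54618062, minus strand: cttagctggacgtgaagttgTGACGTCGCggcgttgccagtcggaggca
Psmb6, chr11:70525328-70525356, plus strand: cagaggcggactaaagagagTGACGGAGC
Psme1, chr14:55578493-55578522, plus strand, motif on the opposite strand: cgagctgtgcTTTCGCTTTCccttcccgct

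Promoter entries, 300 bases each, were found for 36 of the 44 genes, and Psmb7 is among the 8 that were not searched. On either strand TGACNNNGC occurred in 5 of the 36 (13.9%), Psmb6, Psmc6, Psmd12, Psmd9 and Psme4, against 12.5% of all 27025 promoters. GAAA-NN-GAAA occurred in 5 (13.9%), Psmb3, Psmd4, Psmd9, Psme1 and Psmg4, against 3.49% of all promoters. CCAAT, the box bound by the nuclear factor Y trimer, occurred in 14 (38.9%), against 37.9% of all promoters. Psmd9 held both of the first 2 motifs, 31 and 159 bases before its start. These are letter matches and do not show that a factor binds there.

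None of the proteasome genes passed the test between diabetic and control samples. The count was 0 of 43 tested genes, beside 4.76% of all genes tested, 2.68% higher and 2.08% lower (limma, Benjamini-Hochberg adjusted over 11193 genes), and it was also 0 with voom on the read counts that the FPKM values imply, beside 5.9% of all genes. At an unadjusted p under 0.05 there were 4 genes, 3 higher (Psme1, Psma2 and Psmc4) and 1 lower (Psmb6), beside 22.4% of all genes. Outside the name rule, Mir686 and the gene matched to Psmd2 were also lower at this threshold (unadjusted p = 0.034 and 0.037, limma). Psmb11, the thymus-specific beta subunit, was at 0 FPKM in all 9 samples and was the only one not tested, while 42 of the 44 were at 1 FPKM or more in every sample. The other was Psma8, the testis form of an alpha subunit, at 0.560 to 1.65 FPKM.

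The differences were small on the log2(FPKM + 1) scale. The log2 fold changes (diabetic minus control) ran from −0.35 for Psmb6 to 0.38 for Psme1 with a median of 0.035, beside a median of −0.013 over all genes tested, and 27 were positive and 16 negative. No proteasome gene had a fold change beyond 0.5 in either direction, beside 11.2% of all genes tested. The 95% confidence interval lay within a 1.5-fold change in either direction for 40 of the 43, the exceptions being Psmb6 (−0.70 to −0.01), Psme1 (0.13 to 0.62) and Psma8 (−0.60 to 0.17). The residual SD was also modest, with a median of 0.15 log2 units for the proteasome genes and 0.20 for genes with a mean of 4 to 300 FPKM.

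**Figure D1:**
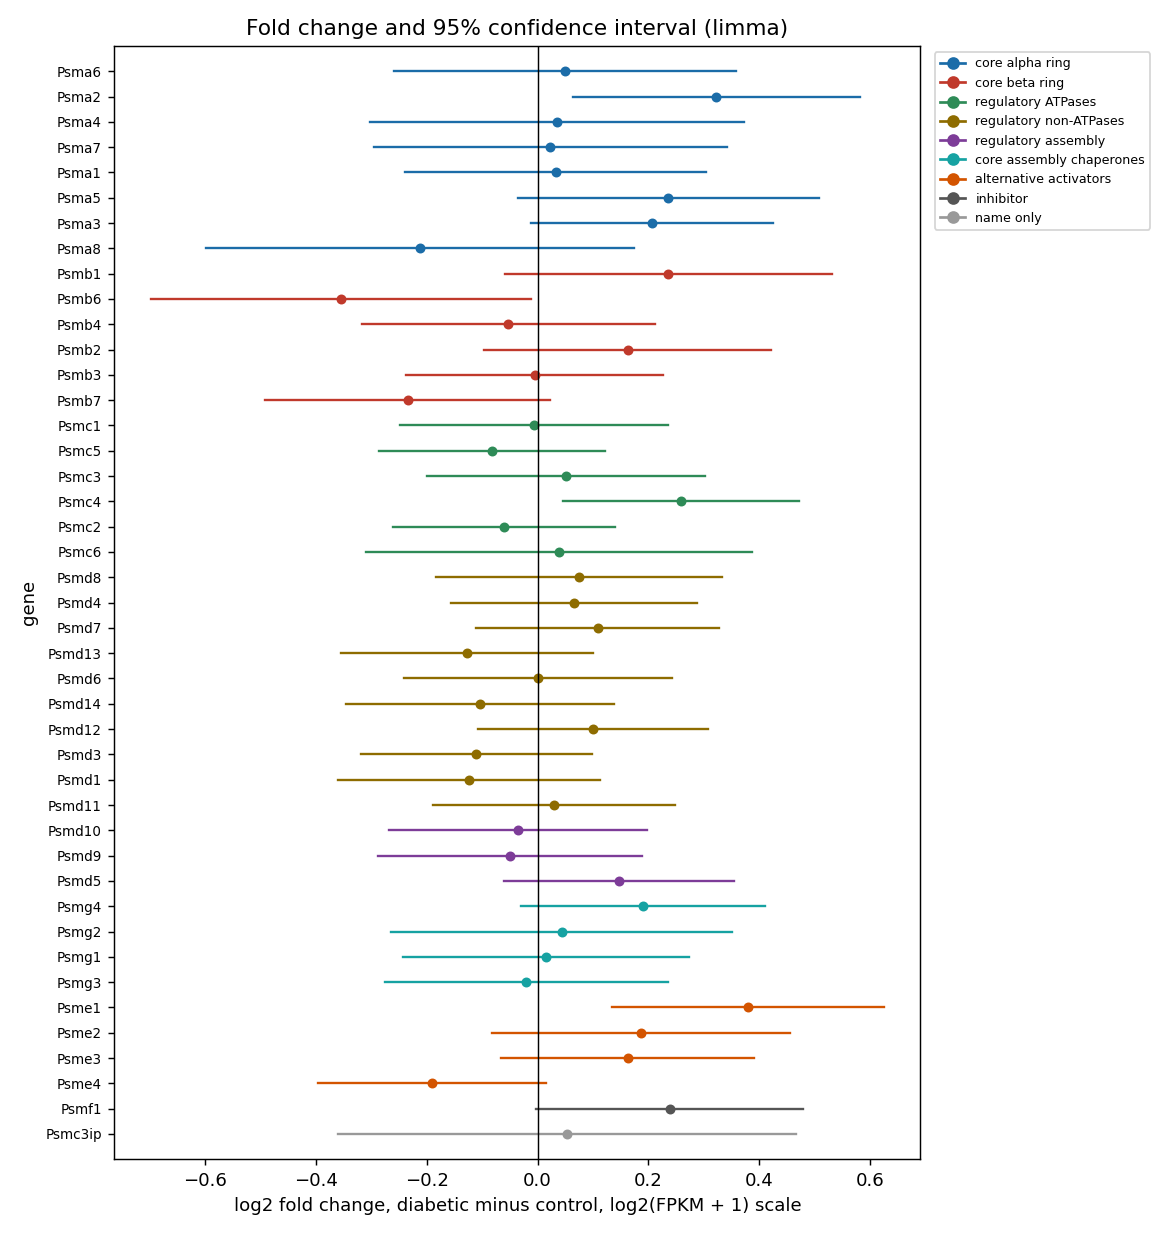
Log2 fold change between diabetic and control samples on the log2(FPKM + 1) scale (x axis) for each of the 43 tested proteasome genes (y axis), with its 95% confidence interval from limma, coloured by role. The points lie between −0.35 (Psmb6) and 0.38 (Psme1), and 0 of 43 genes passed the adjusted threshold.

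The alpha ring genes had similar levels in both groups. Per kilobase of gene, the 7 alpha genes other than Psma8 spanned 5.85-fold in control samples, from Psma3 at 30.7 ± 2.90 FPKM (SD, n = 5) to Psma6 at 179.9 ± 26.4 FPKM. A processed pseudogene on chromosome 6 that the table matches to Psma3 was listed at 28.6 FPKM in control and 32.3 FPKM in diabetic samples, on average, so the level of Psma3 and the span are uncertain. All 7 had a positive fold change, with a median of 0.049 log2 units, but 0 passed. Psma4, Psma7 and Psma1, other members of the gated ring, stood at 75.8 ± 15.9, 73.4 ± 14.2 and 62.7 ± 7.96 FPKM in control samples and at 76.8 ± 9.05, 73.9 ± 8.42 and 64.1 ± 7.84 FPKM in diabetic samples. Psma5 was at 62.4 ± 10.2 against 73.0 ± 4.57 FPKM.

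Psma2 had the smallest p of the ring. Its level was 134, 172, 136, 161 and 144 FPKM in control 1 to 5 and 161, 189.7, 209 and 187 FPKM in diabetic 1 to 4. Diabetic 2, 3 and 4 lay above every control sample and diabetic 1 within their range, so the groups overlapped. The log2 fold change was 0.32 (SE 0.12, adjusted p = 0.14, limma).

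The beta ring genes were spread more widely and in both directions. Per kilobase of gene, the 6 genes other than Psmb11 spanned 10.2-fold in control samples, from Psmb7 at 23.9 ± 3.59 FPKM to Psmb1 at 244 ± 33.2 FPKM. Psmb7 is 3421 bases long, with 885 to 1492 reads per sample, and Psmb1 1036 bases, with 3304 to 5052 reads. Psmb1 and Psmb2, non-catalytic members of the ring, had positive fold changes of 0.24 and 0.16 log2 units (adjusted p = 0.33 and 0.45, limma). Psmb3 and Psmb4, also non-catalytic, were at 58.7 ± 5.12 and 118 ± 15.7 FPKM in control samples and 58.5 ± 5.89 and 113 ± 9.32 FPKM in diabetic samples. The most negative fold changes of the ring belonged to the catalytic subunits.

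Psmb6, the caspase-like catalytic subunit on chromosome 11, was at 99.9, 163, 119.9, 138 and 99.3 FPKM in control 1 to 5, against 107, 99.0, 88.8 and 86.1 FPKM in diabetic 1 to 4. Diabetic 2, 3 and 4 lay below every control sample and diabetic 1 lay above control 1 and 5. The log2 fold change was −0.35 (SE 0.16, adjusted p = 0.21, limma). Psmb7, the trypsin-like subunit on chromosome 2, was at 20.9, 29.6, 21.4, 25.1 and 22.4 FPKM in control samples and 20.9, 21.8, 18.1 and 19.3 FPKM in diabetic samples. Diabetic 3 and 4 lay below every control sample, as did, by a small margin, diabetic 1 (20.90 against 20.94 FPKM in control 1). Diabetic 2 lay within the control range, so the groups overlapped, and the log2 fold change was −0.23 (SE 0.12, adjusted p = 0.26, limma). Nek6, which overlaps Psmb7, was also read at 1 FPKM or more, and the strand setting of the counting is not given in the sources used here, so reads of the overlap cannot be told apart.

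Mir686, standing in for the Psmb5 exon, was read at 771, 1003, 885, 835 and 815 FPKM in control 1 to 5 and 792, 783, 534 and 613 FPKM in diabetic 1 to 4. Only diabetic 1 and 2 reached the range of the control samples. The log2 fold change was −0.35 (SE 0.15, adjusted p = 0.18, limma). Its level is not comparable with that of whole genes, because 109 bases are shorter than a usual sequenced fragment, and only its difference between groups is used. A processed pseudogene on chromosome 7 that the table matches to Psmb5 was listed at 33.5 FPKM in control and 25.2 FPKM in diabetic samples, on average, and could share reads with it.

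**Figure D2:**
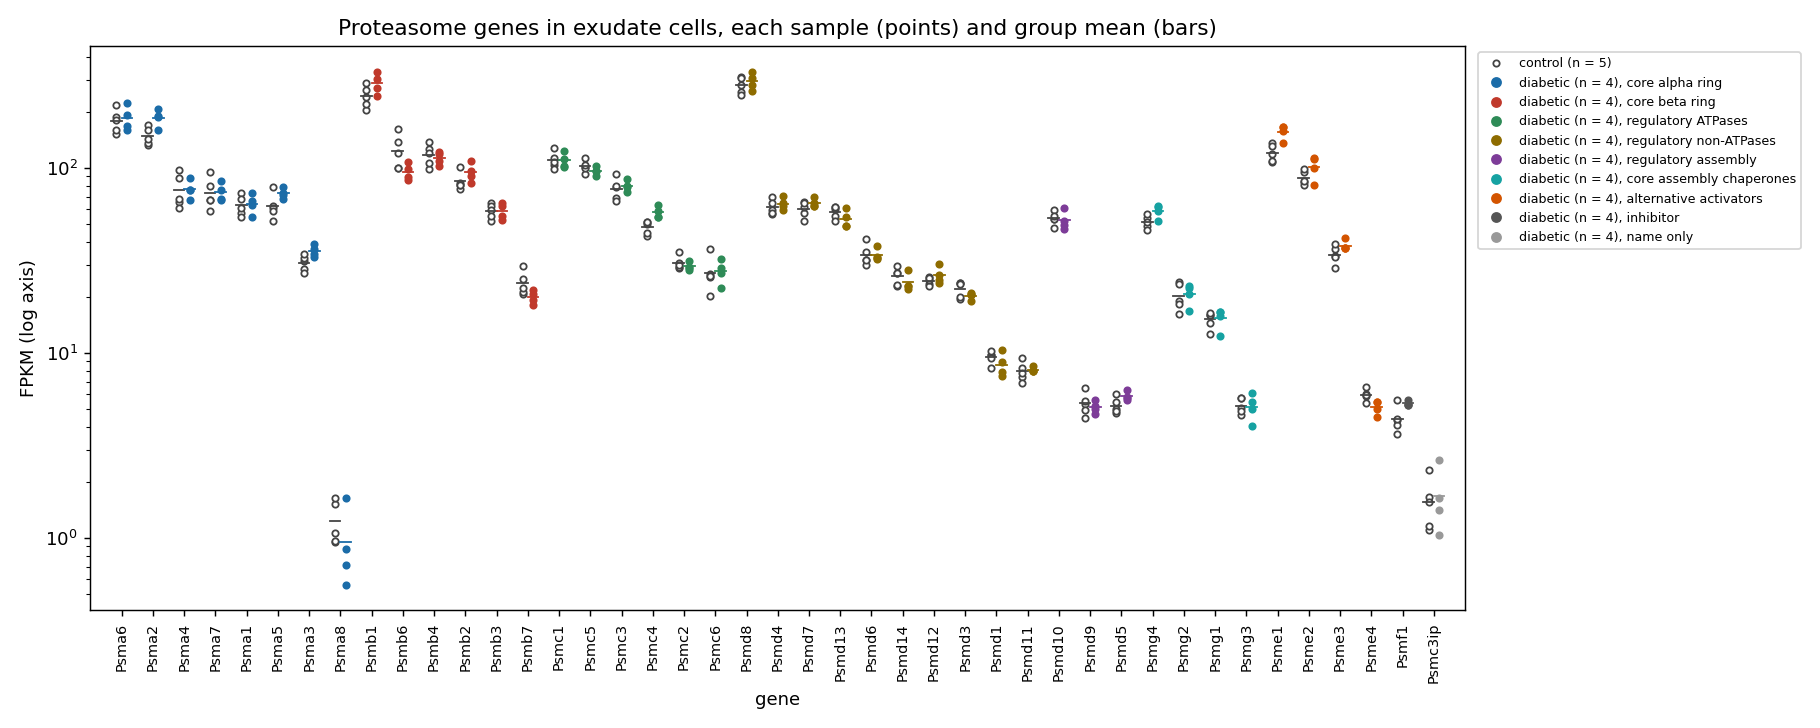
FPKM on a log axis (y axis) for the 43 proteasome genes with any reads (x axis), grouped by role and ordered by control mean within a role, with 5 control samples (open points) and 4 diabetic samples (filled points) and the mean of each group as a bar. Most pairs of groups overlap, and the levels span from about 1 FPKM for Psma8 to 280.5 FPKM for Psmd8 in control samples.

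The immunoproteasome subunits, which the name rule set apart, gave 0 of 3 genes passing. Psmb8 was at 81.0 ± 6.89 FPKM in control and 86.5 ± 8.21 FPKM in diabetic samples, and Psmb10 at 142 ± 21.8 and 152 ± 9.79 FPKM. Psmb9 was at 27.5 ± 2.59 and 34.8 ± 4.70 FPKM (log2 fold change 0.32, SE 0.12, adjusted p = 0.13, limma), and it passed with array weights (adjusted p = 0.046). Each inducible subunit was therefore set against the constitutive one whose place it takes, within each sample, so that the scaling between samples cancels. Each ratio was compared between the groups with an exact permutation test (two-sided), and the p-values were adjusted over the 3 pairs.

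All 3 ratios were higher in diabetic samples. The log2 fold changes were 0.09 for Psmb8, 0.32 for Psmb9 and 0.11 for Psmb10. For Mir686, Psmb6 and Psmb7 they were −0.35, −0.35 and −0.23, so lower constitutive genes contributed to each ratio, and none of these genes passed in the main fit. How often other pairs of genes separate in this way was not tested. Psmb9 to Psmb6 was 0.255, 0.195, 0.233, 0.192 and 0.260 in control 1 to 5 and 0.338, 0.283, 0.405 and 0.452 in diabetic 1 to 4. Every diabetic sample lay above every control sample, with a difference in mean log2 ratio of 0.69 (1.61-fold, SD 0.21 in control and 0.30 in diabetic samples, exact p = 0.0079, adjusted p = 0.012). The p of 0.0079 is the smallest that 5 samples against 4 can give.

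Psmb8 to Mir686 was 0.0931, 0.0910, 0.0907, 0.0965 and 0.0996 in control samples and 0.122, 0.107, 0.144 and 0.145 in diabetic samples. The groups did not overlap, and the difference was 0.45 log2 units (1.36-fold, SD 0.058 and 0.21, exact p = 0.0079, adjusted p = 0.012). Psmb10 to Psmb7 was 5.83, 5.94, 6.70, 5.84 and 5.55 in control samples and 7.84, 6.45, 8.25 and 8.04 in diabetic samples. Of the 4 diabetic samples 3 lay above every control sample, and diabetic 2 lay below control 3. The difference was 0.35 log2 units (1.28-fold, SD 0.10 and 0.16, exact p = 0.024, adjusted p = 0.024). Without control 1, 2, 4 or 5 the exact p of this last ratio was 0.057, with differences of 0.33 to 0.35.

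Markers of some other immune cells differed between the groups beside these ratios, and their part in the ratios was not tested. The T cell markers summed to 314, 562, 147 and 496 FPKM in diabetic 1 to 4 and to at most 81.5 FPKM in a control sample, and the B cell markers to 2783, 3305, 1628 and 3484 FPKM, with control samples at 1065 to 2239 FPKM. The NK cell markers, 2 of 8 higher, summed to 85.8, 91.8, 106 and 118 FPKM in diabetic samples and to 42.4 to 86.8 FPKM in control samples. Summed in diabetic against control samples, mast cell markers (0 of 7 passing) were at 113 to 381 against 285 to 707 FPKM. Eosinophil markers (0 of 3 passing) were at 8.56 to 17.8 against 15.2 to 53.2 FPKM and neutrophil markers (0 of 7) at 121 to 540 against 117 to 1149 FPKM. Monocyte markers (1 of 7 higher) were at 741 to 980 against 839 to 1018 FPKM and resident peritoneal macrophage markers (0 of 10) at 944 to 1347 against 832 to 1174 FPKM. The dendritic cell markers, of which 5 were tested, 1 higher and 1 lower, summed to 236, 233, 164 and 265 FPKM in diabetic samples and to 112 to 160.2 FPKM in control samples. The higher one, Ccr7, was at 139, 163, 63.0 and 175 FPKM in diabetic 1 to 4 and at 24.8 to 39.1 FPKM in control samples. The lower one, Batf3, was at 6.55 to 17.3 FPKM in diabetic and 18.1 to 30.2 FPKM in control samples. The sum thus does not stand for the dendritic cell markers as a set. Diabetic 4, with the highest B cell and NK cell sums and the second T cell sum, also had the highest ratios of Psmb9 to Psmb6 and of Psmb8 to Mir686. Diabetic 2, with the highest T cell sum, had the lowest of the diabetic values in all 3 ratios, and diabetic 3, with the lowest T cell sum of the diabetic samples, had the highest ratio of Psmb10 to Psmb7. These orders among 4 diabetic samples were not tested, and no cell type is read from them.

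**Figure D3:**
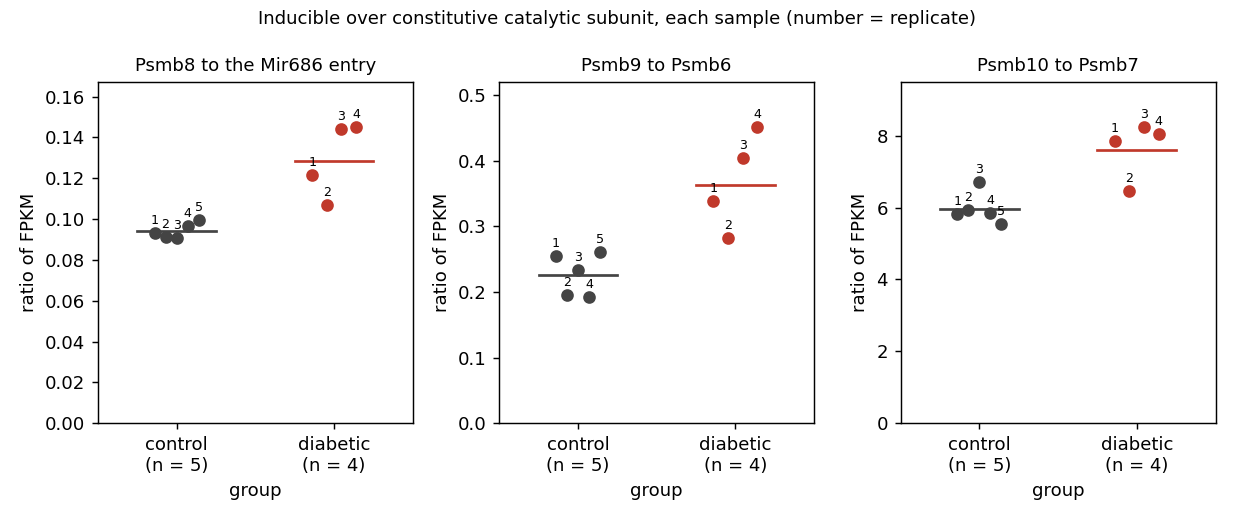
Ratio of FPKM of an inducible to a constitutive catalytic subunit (y axis, from 0) in each of 5 control and 4 diabetic samples (x axis), numbered by replicate, with the geometric mean of each group as a bar. The groups do not overlap for Psmb8 to Mir686 and for Psmb9 to Psmb6, while diabetic 2 at 6.45 lies below control 3 at 6.70 for Psmb10 to Psmb7.

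The ATPases of the regulatory particle had the narrowest range of FPKM among the ring and cap classes. The 6 genes spanned 4.08-fold in control samples, from Psmc6 at 27.1 ± 5.88 FPKM to Psmc1 at 110.4 ± 11.3 FPKM, and their summed level was 396 ± 31.8 FPKM in control and 400.4 ± 20.2 FPKM in diabetic samples. The fold changes of Psmc1, Psmc2, Psmc3, Psmc5 and Psmc6 lay between −0.08 and 0.05 log2 units. Psmc4 was the exception in size. It was read at 43.0, 50.8, 50.1, 44.6 and 51.2 FPKM in control samples and 54.1, 62.8, 54.2 and 58.8 FPKM in diabetic samples. Every diabetic sample lay above every control sample, as in 1 other proteasome gene, Psme1. Such separation was seen in 9.42% of all genes tested, 4.82% with the diabetic samples higher and 4.6% with them lower. It was seen in 2 genes of the name rule, both higher. Outside the rule, the gene matched to Psmd2 also separated, with the diabetic samples lower. The log2 fold change of Psmc4 was 0.26 (SE 0.097, adjusted p = 0.15, limma).

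Per kilobase of gene, the non-ATPase subunits held both the highest and some of the lowest levels of the complex. Psmd8 had the highest level of the proteasome genes, at 280.5 ± 28.9 FPKM in control and 295 ± 30.5 FPKM in diabetic samples. Psmd11, also a lid subunit, was 35.2-fold lower in control samples, at 7.96 ± 0.988 FPKM. Psmd8 is 1540 bases long, with 6129 to 7310 reads per sample, and Psmd11 6294 bases, with 615 to 957 reads. Psmd4, a ubiquitin receptor, and Psmd14, the deubiquitinase that strips chains from substrates, were at 61.3 ± 5.64 and 25.95 ± 2.83 FPKM in control samples and 64.2 ± 4.92 and 24.1 ± 2.65 FPKM in diabetic samples. Psmd7, the partner of Psmd14, was at 60.1 ± 5.75 and 64.7 ± 3.33 FPKM. The scaffold Psmd1 was at 9.48 ± 0.740 and 8.65 ± 1.25 FPKM. The lid subunits Psmd3, Psmd6 and Psmd12 were at 22.2 ± 2.09, 33.99 ± 4.44 and 24.4 ± 1.23 FPKM in control samples, and their fold changes were −0.11, 0.00 and 0.10 log2 units.

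Of the 10 named non-ATPases 6 had positive and 4 negative fold changes, all between −0.13 and 0.11. The smallest p belonged to Psmd13, a lid subunit, at 54.7, 60.3, 61.2, 61.8 and 51.8 FPKM in control samples and 54.6, 60.4, 48.6 and 48.6 FPKM in diabetic samples. Diabetic 3 and 4 lay below every control sample and the other 2 diabetic samples within their range (log2 fold change −0.13, SE 0.10, adjusted p = 0.50, limma). The gene matched to Psmd2 was at 56.7, 67.2, 60.2, 60.2 and 55.4 FPKM in control samples and 53.7, 53.6, 50.2 and 47.6 FPKM in diabetic samples. Here the diabetic samples all lay below the control samples, and the log2 fold change of −0.22 (SE 0.093) had an adjusted p of 0.19 (limma).

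The chaperones that assemble the particles were mostly low per kilobase of gene. For the regulatory particle, Psmd9 and Psmd5 were at 5.34 ± 0.744 and 5.19 ± 0.508 FPKM in control samples, and Psmd10, also known as gankyrin, at 53.4 ± 4.22 FPKM. Their reads per sample were alike, at 504 to 691, 511 to 675 and 514 to 608. Their gene lengths were 7264, 7220 and 696 bases, so the gap in FPKM came with gene length. Psmd5 had the smallest p of these regulatory particle chaperones, at 4.73, 5.97, 4.96, 5.41 and 4.87 FPKM in control and 5.59, 6.34, 5.76 and 5.67 FPKM in diabetic samples. The diabetic values lay above all control values but that of control 2 (log2 fold change 0.15, SE 0.094, adjusted p = 0.39, limma). For the core particle, the chaperones Psmg1, Psmg2 and Psmg3 were at 15.2 ± 1.57, 20.3 ± 3.51 and 5.18 ± 0.480 FPKM in control samples with fold changes between −0.02 and 0.04 log2 units. Psmg4 was at 48.5, 53.6, 56.5, 51.0 and 45.9 FPKM in control and 58.4, 62.5, 51.6 and 61.2 FPKM in diabetic samples. Diabetic 1, 2 and 4 lay above every control sample and diabetic 3 within their range (log2 fold change 0.19, SE 0.10, adjusted p = 0.29, limma).

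The 4 activators had a median fold change of 0.17 log2 units, the most positive of the roles with more than 1 gene. Psme1 and Psme2, which together form the interferon-inducible activator ring, lie next to each other on chromosome 14 (52108833 to 52112239 and 52118263 to 52121858 in the table's own coordinates). The labels name GRCm38, but these positions differ from that build, so the build of the coordinates is uncertain. Psme1 was at 108, 136, 119, 131 and 109 FPKM in control 1 to 5 and 137, 166, 158 and 167 FPKM in diabetic 1 to 4. The groups did not overlap, though diabetic 1 (136.7 FPKM) lay close to control 2 (135.7 FPKM). The log2 fold change was 0.38 (SE 0.11), the largest of the proteasome genes, with an adjusted p of 0.078 (limma). It passed under 2 alternatives, with array weights (adjusted p = 0.038, beside 11.7% of all genes) and with samples scaled to plain totals (adjusted p = 0.033, beside 4.73%). Emc9, which overlaps Psme1, was also read at 1 FPKM or more.

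Psme2 was at 84.2, 80.6, 94.9, 99.2 and 84.5 FPKM in control and 113, 100.4, 81.1 and 111 FPKM in diabetic samples. Diabetic 1, 2 and 4 lay above every control sample and diabetic 3 among the lowest, and the log2 fold change was 0.19 (SE 0.12, adjusted p = 0.40, limma). Psme3, the nuclear activator, was at 34.03 ± 3.76 and 38.1 ± 2.45 FPKM, and Psme4, which caps proteasomes that degrade histones, at 5.94 ± 0.437 and 5.09 ± 0.430 FPKM (adjusted p = 0.39 and 0.25, limma). Psmf1, an inhibitor of proteasome activity in vitro, was at 4.36, 5.58, 4.06, 4.38 and 3.65 FPKM in control and 5.26, 5.54, 5.22 and 5.32 FPKM in diabetic samples. Only control 2 reached the diabetic range (log2 fold change 0.24, SE 0.11, adjusted p = 0.23, limma). Psmc3ip was read at 1.04 to 2.62 FPKM over the 9 samples, from 27 to 75 reads, with a log2 fold change of 0.05.

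The proteasome genes differed between samples of one group, by an amount that depended on the scaling between samples. Over the 42 genes at 1 FPKM or more in every sample, the median log2 ratio to the control mean was 0.17 in control 2, where 37 of the 42 (88.1%) lay above it, beside 0.061 and 58.9% over 9701 genes of all kinds. In control 1 it was −0.13, where 3 of the 42 (7.14%) lay above, beside −0.0066 and 48.4%. Control 2 was the highest control sample for 26 of the 42 (61.9%), beside 36.9% of all those genes, and control 1 the lowest for 21 (50.0%), beside 16.98%. With plain totals, an alternative chosen after seeing the data, the median was 0.036 in control 2, with 25 genes above, and −0.078 in control 1, with 8 above, beside −0.068 and 0.049 over all those genes. In diabetic 1 to 4 the medians were −0.04, 0.13, 0.09 and 0.02 as deposited and 0.02, 0.13, 0.06 and 0.14 with plain totals. The summed level of the 7 alpha genes was 546, 767, 573, 677 and 607 FPKM in control 1 to 5 and 613, 753, 752 and 667 FPKM in diabetic 1 to 4, and the 6 beta genes summed to 553, 785, 654, 687 and 585 FPKM and to 616, 729, 645 and 686 FPKM. Control 2 also had the most reads in genes, 16169060, and the fewest genes at 1 FPKM or more, 10658, and the highest sum of macrophage markers, 11107 FPKM.

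**Figure D4:**
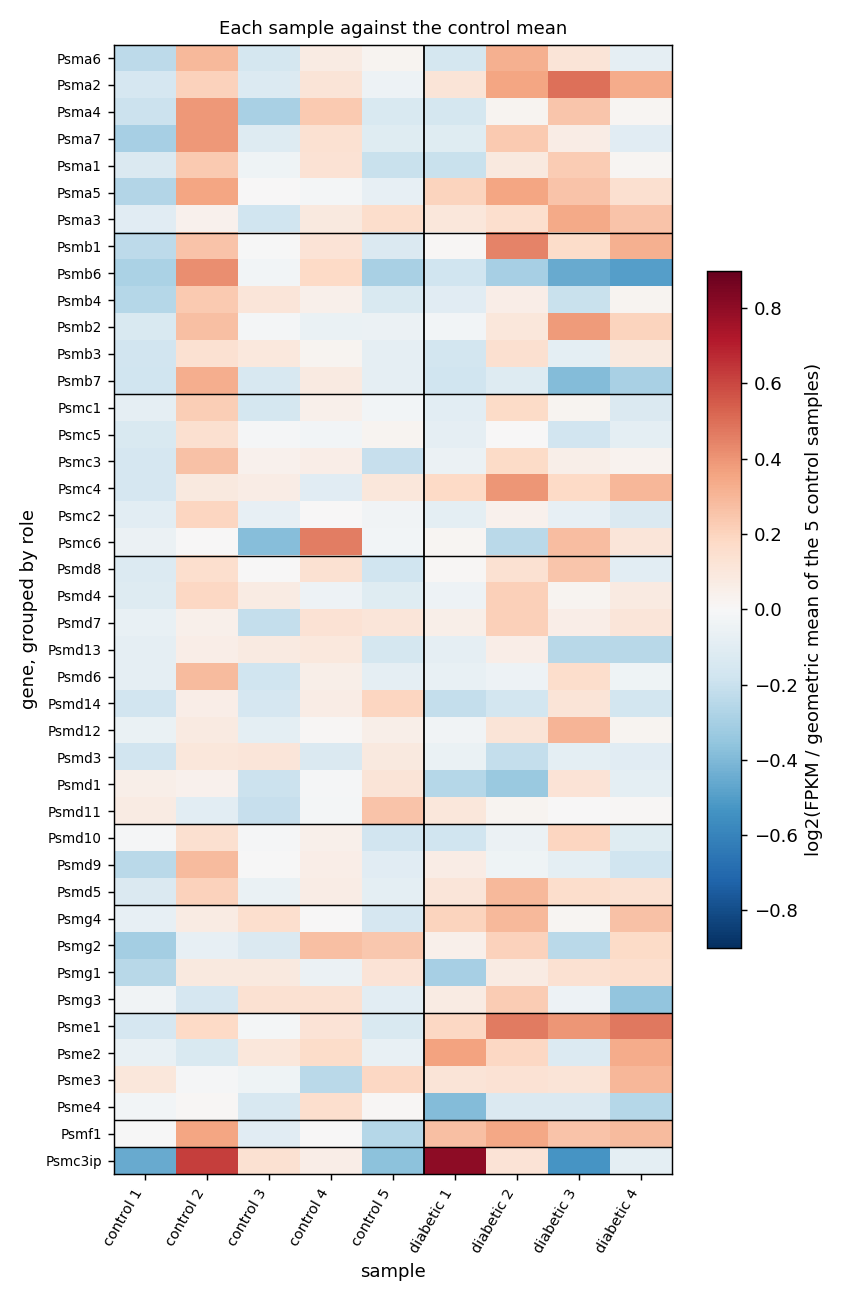
Log2 ratio of each sample to the geometric mean of the 5 control samples (colour) for the 42 proteasome genes at 1 FPKM or more in every sample (y axis, lines between roles) in 9 samples (x axis, line between groups). Control 2 is above the control mean for 37 genes and control 1 for 3, and the 4 diabetic samples lie between them in the median under the deposited scaling. This does not hold with plain totals, where diabetic 4 is highest at 0.14, beside 0.092 over 9701 genes of all kinds, and diabetic 2 is at 0.13, beside −0.0075.

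Other genes of the pathway gave 0 or 1 call in each list, beside 4.76% of all genes tested. Lists this small cannot be told apart from that share. Among 9 further subunits and partners, which include the ubiquitin receptor Adrm1 and the maturation factor Pomp, 0 passed, the smallest p belonging to Akirin2, which carries proteasomes into the nucleus (24.8 ± 4.62 against 30.6 ± 4.26 FPKM, adjusted p = 0.25), and to Shfm1, a small lid subunit (77.5 ± 19.5 against 60.9 ± 8.65 FPKM, adjusted p = 0.31). None of 8 tested ubiquitin shuttle genes passed, with Zfand2a at 20.5 ± 1.84 against 16.5 ± 4.20 FPKM, nor did any of 9 genes of the unfoldase p97 and its cofactors, with Nsfl1c at 23.0 ± 2.41 against 19.96 ± 1.61 FPKM. None of 14 ubiquitin, E1 and E2 genes passed, the smallest p belonging to Uba6, an E1 enzyme (2.02 ± 0.345 against 0.997 ± 0.522 FPKM, log2 fold change −0.62, adjusted p = 0.061). Uba6 passed with array weights (adjusted p = 0.022), with voom (log2 fold change −1.12, adjusted p = 0.035) and without diabetic 4 (adjusted p = 0.035). These adjusted p-values are from limma over all genes tested.

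Of 11 regulators of proteasome genes, 1 fell and 0 rose, beside 2.08% and 2.68% of all genes tested. Bach1, a repressor that competes for antioxidant response elements, was at 23.2, 19.96, 22.5, 15.3 and 19.1 FPKM in control samples and 9.96, 5.70, 14.5 and 10.1 FPKM in diabetic samples. The groups did not overlap, and the log2 fold change was −0.97 (SE 0.21, adjusted p = 0.030, limma). Leaving out control 1, 2, 3 or 5, or diabetic 1, 2 or 4, gave an adjusted p of 0.053 to 0.085, and testing with no filter on low values gave 0.073. Mafg, a partner of Nfe2l1 and Nfe2l2 at these elements, was at 18.4 ± 1.24 against 14.3 ± 1.88 FPKM (log2 fold change −0.35, adjusted p = 0.082, limma). Nfyc, of the nuclear factor Y trimer, went the other way, at 11.2 ± 1.73 against 14.7 ± 0.853 FPKM (log2 fold change 0.37, adjusted p = 0.088, limma). With array weights 1 of the 11 rose and 2 fell, and without control 2 the counts were 1 and 0.

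Of 12 cytosolic chaperone genes, which hold or fold the proteins that proteasomes otherwise degrade, 1 fell and 0 rose, beside 2.08% and 2.68% of all genes tested. Hsp90aa1, the stress-inducible form of the chaperone Hsp90, was at 55.1, 26.3, 54.1, 38.5 and 44.4 FPKM in control samples and 13.9, 13.5, 20.1 and 27.7 FPKM in diabetic samples. Diabetic 4 lay above control 2, and the log2 fold change was −1.19 (SE 0.26, adjusted p = 0.030, limma). Leaving out control 1, 3, 4 or 5, or diabetic 1 or 2, gave an adjusted p of 0.052 to 0.097, plain totals 0.052 and no filter on low values 0.069. The median fold change of the 12 was −0.35 log2 units with 11 negative, beside −0.013 over all genes tested.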

How the data were processed

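The authors deposited gene FPKM values with gene length and position for 9 samples, and all 9 value columns were matched by title. FPKM times length was a whole multiple of 1 read's worth in 100% of values (within 0.05), which gave the reads per sample. The divisors these values imply are 0.911 to 1.08 times the plain totals, so the deposited FPKM were scaled between samples. Duplicate reads from PCR were not separable here. For the aligner, the counter and its strand handling, the step is not given in the sources used here. Genes with at least 1 FPKM in at least 4 samples were tested on log2(FPKM + 1) with limma 3.58.1 in R 4.3.3 (trend and robust moderation, group as the only factor, two-sided), with Benjamini-Hochberg adjustment and a threshold of 0.05. On simulated data the fit called 61 of 100 genes changed 2-fold, 3 of 100 changed 1.3-fold and 2 of 10829 unchanged. Most changes of 1.3-fold would thus be missed. The log2 scale with a pseudocount of 1 understates changes of low genes. Every gene of the name rule is named. Per-sample values are given for the catalytic subunits, Psme1, Psme2 and the smallest p of each role, and companion lists give up to 4 passing genes, or up to 2 with the smallest p. Those for the gene matched to Psmd2 were added after its values were seen. Mafg and Nfyc, which did not pass, are given in addition. The genes and lists were chosen with earlier results of these data known. Genes with a matched copy at 1 FPKM or more (Psma3, Psma4, Psma5, Psmb3, Psmc1 and the gene matched to Psmd2) or with overlapping genes at 1 FPKM or more (8 genes) are uncertain.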

Additional observations from a re-analysis of the deposited data

Results flagged for a closer look

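In 92 groups of samples examined gene by gene, 5 had 1 sample far from the others by Dixon's ratio, and chance gives about 1 in 20. Psmb2 was at 101.4 FPKM in control 2, with the next control sample at 83.3 FPKM. Psme3 was at 41.7 FPKM in diabetic 4, with the next diabetic sample at 37.1 FPKM. In diabetic 3, Psmd6 was at 37.6 FPKM and Psmd14 at 28.0 FPKM, with the next diabetic samples at 32.9 and 23.0 FPKM. Psmd11 was at 8.49 FPKM in diabetic 1, with the next diabetic sample at 8.03 FPKM.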

How the results depend on the processing

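The count of changed genes among all genes, 533, was 1304 with array weights, 183 with no filter on low values and 62 with the replicate number as a block, and leaving out 1 sample gave 115 to 1126, the highest without diabetic 3 and the lowest without diabetic 4. The count of changed proteasome genes was 1 (Psme1) with array weights and with plain totals, 0 with the replicate block and 0 to 0 when 1 sample was left out. Their median log2 fold change ran from −0.012 to 0.091 when 1 sample was left out. The Psmb10 to Psmb7 difference was 0.34 without control 1, 0.35 without control 2, 0.35 without control 4 and 0.33 without control 5, each with an exact p of 0.057, and ran from 0.31 to 0.43 over all samples left out in turn. The other 2 ratios stayed under an adjusted p of 0.05 in every setting run. Samples with the same number correlated at 0.023, 0.16, −0.26 and −0.18 in their deviations from the group means, so the numbers were not taken as pairs. With the replicate block Bach1 and Hsp90aa1 had adjusted p-values of 0.080 and 0.082 (limma). The edgeR and DESeq2 alternatives were not run because the values are FPKM, and voom on the recovered reads, chosen after seeing the data, took their place. The depth limited Psma8 and Psmc3ip most, with 14 to 40 and 27 to 75 reads per sample.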
